A study of Mus musculus with 21 samples.

Results

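The 10 genes described here encode ligands, an inhibitor and response genes of bone morphogenetic protein (BMP) and activin signalling: the ligand genes Bmp2, Bmp4, Bmp6, Bmp7 and Inhba, the inhibitor gene Fst, and the response genes Id1, Id2, Id3 and Smad7. They were taken by symbol from the 49315 gene identifiers of each file, all 10 were found, and all 10 passed the filter on low counts in the comparison below.

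BMPs and activins are secreted dimers of the TGF-β superfamily that bind paired receptor kinases at the cell surface. BMP receptors act through Smad1, Smad5 and Smad9, activin receptors through Smad2 and Smad3, and both use Smad4 to reach the genome. In skin, BMP signalling is known for holding hair follicle stem cells at rest and for a part in keratinocyte differentiation, and activin for its rise during wound repair. Id1, Id2 and Id3 are among the most direct BMP response genes, and their products block basic helix-loop-helix transcription factors.

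The series sequenced RNA of mouse epidermis in which Tfap2a and Tfap2b, the genes of AP-2 transcription factors, were targeted. Epidermis labelled K14CreTfap2afl/flTfap2bfl/fl, from 6-month-old mice with floxed alleles of both genes and Cre under the Krt14 promoter (3 samples, called dKO-labelled from here on, for a double knockout as labelled), was set against a strain-specific control of the same age labelled as wild type (3 samples). This Cre is known to act in basal keratinocytes and the cells that derive from them, so immune, pigment and dermal cells of a sample keep both genes. Of the 15 files at 3 weeks, 2 held counts, both labelled K14CreTfap2bfl/fl, in which Tfap2b alone is targeted; in the other 13 every gene was listed at 0. Nothing in the labels says that samples came from separate mice, so p-values measure the spread between these samples.

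The 8 libraries with counts held 11318181 to 17746284 counts. Neither targeted gene passed the threshold between the groups with all 6 libraries: Tfap2a was at 140.3 to 210.1 CPM (counts per 1000000 counts of the library) in the controls and 213 to 309 CPM in the dKO-labelled libraries, with a fitted change of 0.47 in log2 (SE 0.19; edgeR, adjusted p 0.118). Tfap2b was at 57.3 to 86.6 against 53.8 to 57.2 CPM (log2 fold change -0.43, SE 0.17, edgeR adjusted p 0.111). Over the libraries left out, its change ran from -0.56 without control replicate 1 (edgeR adjusted p 0.0599) to -0.27 without control replicate 2. Tfap2a was past the threshold as higher without control replicate 3 (0.72, edgeR adjusted p 0.0160) and without a filter on low counts (0.57, edgeR adjusted p 0.0204). The median log2 fold change over all genes of that unfiltered fit was -0.56. All directions below are those of the labels. Counts over a whole gene include exons outside a deletion, so these levels do not show whether either gene was deleted as labelled. Control replicates 1 and 2 held 1.61 and 3.19 counts per exonic kb of odorant and vomeronasal receptor genes, which skin is not known to use, against 0.0969 to 0.195 in the other 6 libraries. At 6 months Krt5 was at 2434 to 5893 CPM, and 6 basal keratinocyte markers summed to 6950 to 17349 CPM. Sums were lower for 5 sebaceous (541 to 1272 CPM), 7 dermal fibroblast (114 to 887 CPM) and 5 Langerhans and myeloid markers (241 to 348 CPM). They were also lower for 4 T cell (32.2 to 125 CPM), 4 endothelial (4.04 to 18.8 CPM) and 4 adipocyte markers (0.290 to 8.13 CPM). Such sums do not give the share of RNA that came from each cell type.

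The BMP ligand genes Bmp2 and Bmp4 and the response genes Id1 and Smad7 were lower in the dKO-labelled libraries. They fell by 1.92-fold to 2.85-fold, and none of the 10 rose past the threshold in edgeR's test, although 1, Bmp7, was higher at an unadjusted p under 0.05 and passed with DESeq2 and not with limma-voom. These 4 of 10 compare with 14.9% of the 17755 genes tested that passed an edgeR adjusted p of 0.05 in either direction, with 8.59% that passed it as lower and with 6.26% as higher. The median log2 fold change of the 10 was -0.95, against -0.035 over all genes tested. Every dKO-labelled library was below every control in the same 4 genes, as in 16.3% of tested genes, and above every control in Bmp7, as in 22.5% of tested genes (38.7% in either direction). Without control replicate 1, 2 or 3 there were 2, 1 and 5 of the 10 past the threshold. Beside them stood 1381 (7.55%), 1205 (6.65%) and 7544 (35.9%) of all genes tested in those fits. Leaving out dKO-labelled replicate 1, 2 or 3 left 1, 1 and 4 of the 10, beside 668 (3.15%), 1043 (4.95%) and 1353 (6.44%) of all genes tested. In bulk RNA, fewer cells of a type and less RNA per cell cannot be told apart.

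Promoter sequence from RefSeq (GRCm38.p6) was matched by symbol for 5 of the 10 genes: Bmp4, Bmp6, Id2, Id3 and Inhba. The 250 bases before each start were searched on both strands for GCCNNNGGC, a consensus of AP-2 factors, for GGCGCC, a GC-rich sequence bound by BMP Smads, and for GTCTAGAC, the Smad palindrome. Bmp4 is shown because it is the one called gene among the 5, Id2 because it alone held GGCGCC and Id3 because it alone held GCCNNNGGC. Capitals mark the matches, and Bmp4 had none of the 3 motifs. Bmp4 is at chr14:46390670-46390919 on the minus strand and Id2 at chr12:25096093-25096342 on the minus strand. For Id3, whose window lies in the exon at the 5′ end of the gene as the files draw it, the stretch around the match is given, chr4:136143713-136143741 on the plus strand.
Bmp4: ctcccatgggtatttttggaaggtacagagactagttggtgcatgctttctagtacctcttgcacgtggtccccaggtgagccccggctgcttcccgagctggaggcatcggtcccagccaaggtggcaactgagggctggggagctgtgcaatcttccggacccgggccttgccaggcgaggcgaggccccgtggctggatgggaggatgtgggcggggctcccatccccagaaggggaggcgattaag
Id2: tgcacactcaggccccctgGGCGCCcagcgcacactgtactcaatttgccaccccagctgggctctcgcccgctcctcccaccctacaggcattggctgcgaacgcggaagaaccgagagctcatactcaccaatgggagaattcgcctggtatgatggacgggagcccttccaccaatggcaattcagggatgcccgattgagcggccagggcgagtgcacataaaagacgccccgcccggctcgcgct
Id3: gggaggcggtGCCCAGGGCgggcgggggt
Of all 32851 promoters in the table, 13.7% held GCCNNNGGC, 9.59% held GGCGCC and 0.167% held GTCTAGAC in the same span. The match in Id3 began 99 bases before the start and that in Id2 231 bases before it, and neither Id2 nor Id3 passed the threshold between the groups. A match is only a run of letters, and binding was not measured.

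Bmp2 (ENSMUSG00000027358, chromosome 2, 133552159 to 133562885, plus strand), a BMP ligand gene, had the smallest adjusted p of the 10. It was at 49.0, 61.3 and 37.9 CPM in control replicates 1 to 3 and at 13.6, 17.999 and 22.8 CPM in the dKO-labelled libraries, from 188 to 694 counts. The groups were well apart, the lowest control lying above the highest dKO-labelled library. Its fitted change was -1.51 in log2 (SE 0.25; edgeR, adjusted p 0.00545), or 2.85-fold lower, from 49.4 ± 11.7 to 18.1 ± 4.61 CPM (SD, n = 3 each). Bmp2 passed the threshold in 17 of 18 alternative fits and missed it at -1.11 (edgeR adjusted p 0.102) when control replicate 3 alone was the control, a fit that assumes the lone control to vary like the other group.

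Bmp4 (ENSMUSG00000021835, chromosome 14, 46383520 to 46390669, minus strand), whose product is closely related to BMP2, measured 20.8, 18.02 and 15.0 CPM across control replicates 1 to 3, against 7.97, 12.0 and 9.41 CPM in the dKO-labelled ones. The groups did not overlap, though the nearest libraries were close. It fell past the threshold (log2 fold change -0.94 with SE 0.24; edgeR, adjusted p 0.0291), 1.92-fold. The call was lost in 7 of 18 alternative fits, among them without control replicate 1 or 2 (-0.81 and -0.93, edgeR adjusted p 0.0783 and 0.0813) and without dKO-labelled replicate 1, 2 or 3 (-0.76, -1.07 and -0.87), while the direction held in all 18. Bmp4 shares 89 of its 2224 exonic bases with Gm15217 on the opposite strand, and how the counting treated strand was not given in the sources used here. Gm15217 held 3 to 15 counts per library.

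Bmp6 (ENSMUSG00000039004, chromosome 13, 38345716 to 38499728, plus strand), a ligand of another BMP subgroup shared with Bmp7, varied widely within both groups. Its controls held 2.74, 17.5 and 6.90 CPM and the dKO-labelled libraries 1.67, 1.02 and 4.51 CPM. The ranges overlapped, since control replicate 1 lay below dKO-labelled replicate 3. Its fitted change was -1.90 in log2 (SE 0.74; edgeR, adjusted p 0.107) and did not pass the threshold, and it was -1.02 without control replicate 2 and -2.66 without dKO-labelled replicate 3. Bmp6 passed with the DESeq2 Wald test (-1.96, DESeq2 adjusted p 0.0171) and without a filter on low counts (edgeR, adjusted p 0.000177).

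Bmp7 (ENSMUSG00000008999, chromosome 2, 172868012 to 172940321, minus strand) was the one gene of the 10 with a fitted difference on the higher side. It measured 29.0, 39.6 and 34.1 CPM across control replicates 1 to 3, against 47.4, 44.6 and 89.3 CPM in the dKO-labelled ones. All 3 of the latter were above all controls, and replicate 3 stood well above replicates 1 and 2. Its fitted change was 0.75 in log2 (SE 0.27; edgeR, adjusted p 0.0933), which did not pass the threshold. It was 0.38 without that replicate 3, and Bmp7 passed the threshold with the DESeq2 Wald test and without a filter on low counts.

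Inhba (ENSMUSG00000041324, chromosome 13, 16011851 to 16027211, plus strand), which encodes the βA subunit of activin A, was near the limit of what these libraries can measure. It measured 0.664, 1.33 and 0.456 CPM across control replicates 1 to 3, against 0.579, 0.750 and 1.18 CPM in the dKO-labelled ones, from 7 to 21 counts. The range of the dKO-labelled libraries lay inside that of the controls, and the fitted difference was -0.011 in log2 (SE 0.69; edgeR, adjusted p 0.994). A density of reads equal to that over receptor genes would account for 39.8% and 42.1% of the Inhba counts of control replicates 1 and 2. With that background subtracted the log2 fold change was 0.38 (edgeR adjusted p 0.685). No difference in Inhba beyond this standard error was found.

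**Figure D1:**
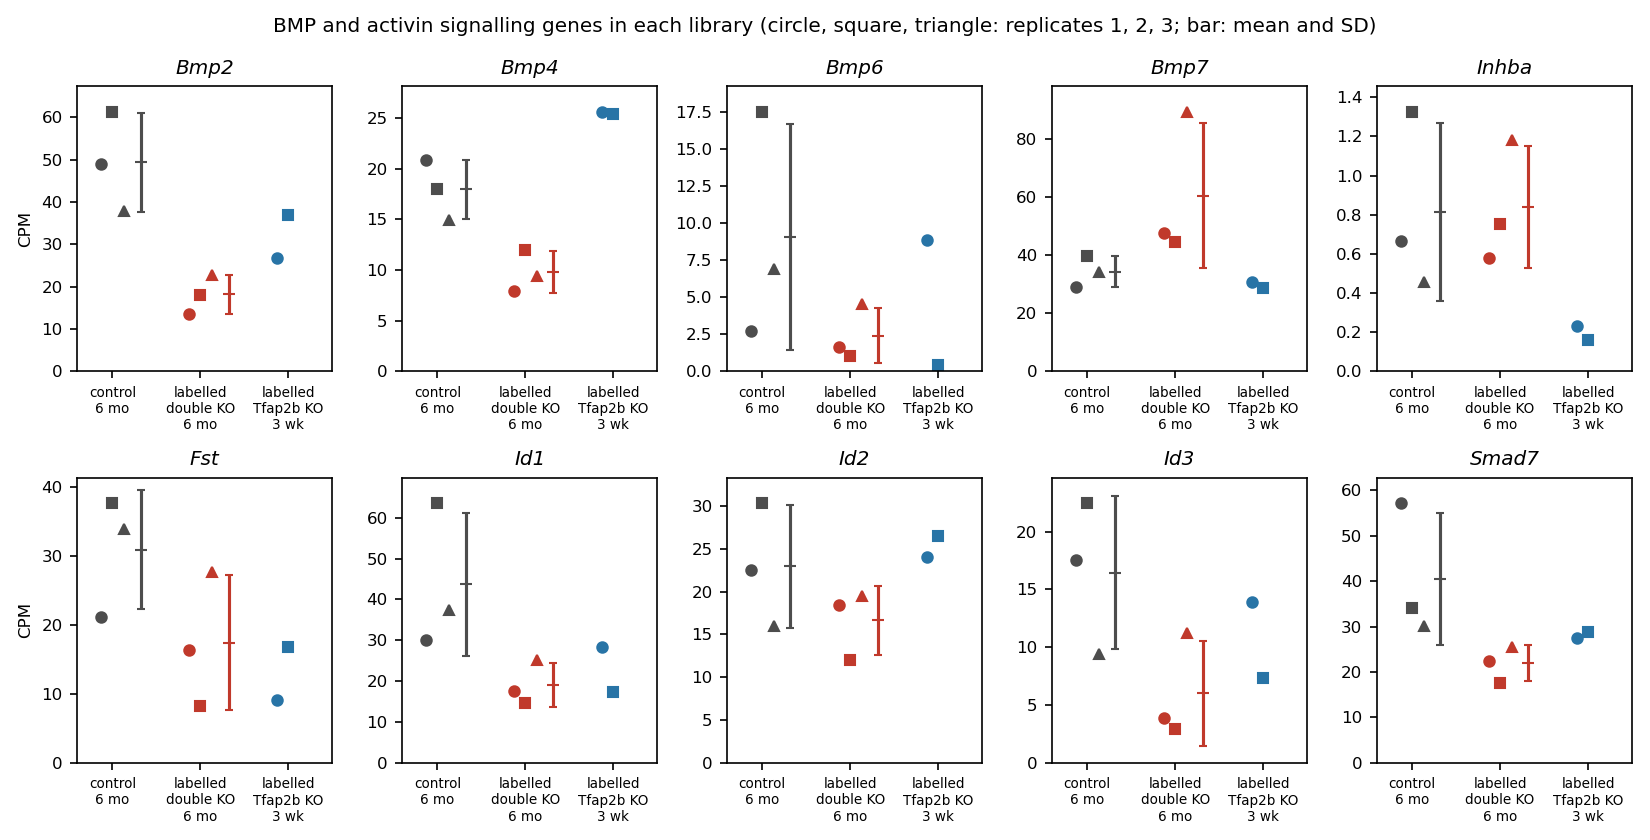
CPM (vertical axes, linear from 0, a separate scale per gene) of the 10 genes in the 8 libraries with counts: 3 controls and 3 dKO-labelled libraries at 6 months, each with the mean and SD beside them, and 2 libraries labelled Tfap2b knockout at 3 weeks. Bmp2, Bmp4, Id1 and Smad7 show no overlap between the groups at 6 months, all lower in the dKO-labelled libraries, and Bmp7 shows none on the higher side.

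Fst (ENSMUSG00000021765, chromosome 13, 114452262 to 114458730, minus strand) encodes follistatin, a secreted protein that binds activins and, more weakly, BMPs. It measured 21.1, 37.6 and 33.9 CPM across control replicates 1 to 3, against 16.4, 8.18 and 27.6 CPM in the dKO-labelled ones. Replicate 3 of the latter lay above control replicate 1, so the groups overlapped. Its fitted change was -0.89 in log2 (SE 0.41; edgeR, adjusted p 0.167). Without that library it was -1.37 and past the threshold (edgeR adjusted p 0.0437), and without dKO-labelled replicate 2 it was -0.52 (edgeR adjusted p 0.317). Fst also passed without a filter on low counts.

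Among the response genes, Id1 (ENSMUSG00000042745, chromosome 2, 152736251 to 152737410, plus strand) measured 30.1, 63.5 and 37.4 CPM across control replicates 1 to 3, against 17.6, 14.6 and 25.1 CPM in the dKO-labelled ones. No library crossed between the groups, and control replicate 2 stood above the other 2 controls. Id1 fell past the threshold (log2 fold change -1.26 with SE 0.31; edgeR, adjusted p 0.0275), 2.39-fold. With control replicate 2 left out the change was -0.88 and the call was lost (edgeR, adjusted p 0.0818). The call was also lost without dKO-labelled replicate 1 or 2 (-1.15 and -1.06) and with control replicate 3 alone (-1.02).

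Id2 (ENSMUSG00000020644, chromosome 12, 25093801 to 25096092, minus strand) measured 22.5, 30.3 and 16.0 CPM across control replicates 1 to 3, against 18.4, 12.0 and 19.5 CPM in the dKO-labelled ones. The groups overlapped, control replicate 3 being below 2 of the dKO-labelled libraries. Its fitted change was -0.54 in log2 (SE 0.28; edgeR, adjusted p 0.211), and Id2 passed the threshold in none of 18 alternative fits, DESeq2 and limma-voom among them. The change was -0.28 without control replicate 2, -0.31 without dKO-labelled replicate 2 and -0.00041 with control replicate 3 alone.

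Id3 (ENSMUSG00000007872, chromosome 4, 136143497 to 136145755, plus strand) measured 17.5, 22.4 and 9.38 CPM across control replicates 1 to 3, against 3.84, 2.93 and 11.2 CPM in the dKO-labelled ones. Replicates 1 and 2 of the latter were low, and replicate 3 was above control replicate 3. Its fitted change was -1.49 in log2 (SE 0.53; edgeR, adjusted p 0.0870), which did not pass the threshold. Without dKO-labelled replicate 3 it was -2.27 and passed (edgeR adjusted p 0.00867), and with control replicate 3 left out it also passed, at -1.69 (edgeR, adjusted p 0.0415). It also passed with DESeq2 and without a filter on low counts. Without control replicate 2 or dKO-labelled replicate 1 the change was -1.21 each, without dKO-labelled replicate 2 it was -1.13, and with control replicate 3 alone -0.67 (edgeR, adjusted p 0.691).

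Smad7 (ENSMUSG00000025880, chromosome 18, 75367529 to 75395935, plus strand) encodes an inhibitory Smad that is induced by TGF-β, activin and BMP signals and blocks their receptors. It measured 57.1, 34.2 and 30.1 CPM across control replicates 1 to 3, against 22.5, 17.7 and 25.5 CPM in the dKO-labelled ones. The groups did not overlap, and control replicate 1 stood apart from the other 2 controls. Smad7 fell past the threshold (log2 fold change -0.96 with SE 0.26; edgeR, adjusted p 0.0393), 1.95-fold. This was the least stable of the 4 calls, lost in 9 of 18 alternative fits. It was -0.62 without control replicate 1 (edgeR adjusted p 0.100), -1.07 without control replicate 2, and -0.92, -0.78 and -1.05 without dKO-labelled replicates 1, 2 and 3.

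Levels were compared between genes as CPM per exonic kb. In the controls Id1 was the most abundant of the 10, at 37.7 ± 15.2 CPM per kb (SD, n = 3), and its lowest control was above every control of Id2, at 18.1 ± 5.63. Bmp2 (13.9 ± 3.30), Fst (13.2 ± 3.69), Id3 (9.18 ± 3.68), Smad7 (8.96 ± 3.22), Bmp7 (8.52 ± 1.32), Bmp4 (8.07 ± 1.32) and Bmp6 (3.75 ± 3.16) followed, and each neighbour in this order overlapped the next in range. Inhba was lowest, at 0.412 ± 0.229 CPM per kb, with all its controls below all those of Bmp6. In the dKO-labelled libraries the same measure was 16.5 ± 4.68 for Id1, 15.0 ± 6.22 for Bmp7 and 13.1 ± 3.19 for Id2, ranges that overlapped. Bmp7 was the highest of the 5 ligand genes there, with its lowest library (11.1 CPM per kb) above the highest of Bmp2 (6.42 CPM per kb), whereas in the controls its highest (9.85) was below the lowest of Bmp2 (10.7).

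The other genes of the BMP, activin and TGF-β pathways were listed by role, 74 genes in 5 lists, of which 55 were tested. Of these, 12 passed the threshold, 5 higher and 7 lower, where 14.9% of all tested genes passed, 6.26% as higher and 8.59% as lower. The median log2 fold change was -0.30. The receptors and the Smads with their regulators had medians of -0.10 and -0.061.

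Among the other ligands, 8 of 19 were tested and 2 passed, both higher and both of the inhibin family. Over all tested genes 6.26% passed as higher. Inhbb, the gene of the activin βB subunit, measured 4.32, 4.68 and 6.71 CPM across control replicates 1 to 3, against 15.5, 10.8 and 22.3 CPM in the dKO-labelled ones, with no overlap. It rose past the threshold (log2 fold change 1.53 with SE 0.32; edgeR, adjusted p 0.0132). Inha, the gene of the inhibin α subunit, which pairs with β subunits to form inhibins that oppose activins, measured 1.41, 1.59 and 2.86 CPM across control replicates 1 to 3, against 6.88, 6.34 and 7.72 CPM in the dKO-labelled ones. It rose past the threshold (log2 fold change 1.69 with SE 0.37; edgeR, adjusted p 0.0159). Per exonic kb, Inhbb and not Inhba was the activin subunit gene of higher level in both groups at 6 months, at 1.23 ± 0.302 against 0.412 ± 0.229 in the controls and 3.81 ± 1.35 against 0.423 ± 0.157 in the dKO-labelled libraries. Inhbb lost its call without control replicate 2 or dKO-labelled replicate 1 (1.46 and 1.61), in one fit over all 8 libraries (1.57) and with control replicate 3 alone (1.21). Inha lost it without control replicate 2 (1.57), without dKO-labelled replicate 1, 2 or 3 (1.74, 1.78 and 1.63) and with control replicate 3 alone (1.20).

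Of 13 receptor genes 12 were tested and 3 passed, 2 as higher and 1 as lower, where 6.26% and 8.59% of all tested genes did. Tgfbr2, the type II receptor of TGF-β, rose (mean 82.1 ± 16.7 CPM in controls, 135 ± 13.2 CPM in dKO-labelled libraries, SD, n = 3 each; fitted log2 change 0.64; edgeR, adjusted p 0.0350), and Acvr1, a type I receptor for BMPs, rose from 35.2 ± 4.69 to 55.0 ± 5.51 CPM (log2 fold change 0.57, edgeR adjusted p 0.0446). Acvr2a, a type II receptor shared by activins and BMPs, fell from 168 ± 29.9 to 119 ± 11.2 CPM (log2 fold change -0.58, edgeR adjusted p 0.0402). The 3 are differences of 1.48-fold to 1.55-fold, and each lost its call in 7 to 10 of 18 alternative fits, leaving out any 1 dKO-labelled library or control replicate 2 included. With the read density over odorant and vomeronasal receptor genes subtracted as background, Tgfbr2 and Acvr1 lost their calls (0.58 and 0.52, edgeR adjusted p 0.0519 and 0.0626). Acvr2a kept its call in that fit (-0.64, edgeR adjusted p 0.0280).

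Of 16 antagonist genes 10 were tested, and Bambi alone passed, as lower, where 8.59% of all tested genes did. Bambi, which encodes a pseudoreceptor without a kinase and is itself a BMP and TGF-β response gene, measured 5.73, 6.36 and 3.13 CPM across control replicates 1 to 3, against 0.290, 0.273 and 1.30 CPM in the dKO-labelled ones, the latter on 4 to 23 counts. It fell past the threshold (log2 fold change -2.81 with SE 0.65; edgeR, adjusted p 0.0160), and was no longer past the threshold without control replicate 2 (-2.63), without dKO-labelled replicate 1 or 2 (-2.49 and -2.48) or with control replicate 3 alone (-2.14). Twsg1, whose product binds BMPs and chordin, was the most abundant of the list in CPM and was at 133 ± 34.0 and 171 ± 21.3 CPM (log2 fold change 0.29, edgeR adjusted p 0.314). Twsg1 passed as higher with control replicate 3 left out (0.58; edgeR, adjusted p 0.0255) and was at 0.13 with control replicate 2 left out. The median of the list was -0.95, with 8 of 10 tested genes below 0, while over all tested genes the median was -0.035 and 47.8% were above 0. Several of the 10 were low in counts. A density of reads equal to that over receptor genes would account for 0.419% to 67.1% of their counts in control replicate 1. In control replicate 2 it would account for 1.12% to 169%, and for Bambi the values were 11.8% and 22.3%. Bambi kept its call with that background subtracted (-2.80; edgeR, adjusted p 0.0230).

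The 14 Smads and Smad regulators were all tested. Tgif1, a corepressor of Smad2 and Smad3, fell (mean 80.7 ± 16.9 CPM in controls, 51.0 ± 8.59 CPM in dKO-labelled libraries, SD, n = 3 each; fitted log2 change -0.74; edgeR, adjusted p 0.0336), and it lost its call in 6 of 18 alternative fits, without control replicate 1 or any 1 dKO-labelled library among them. Zfyve9, an anchor that presents Smad2 and Smad3 to the receptor, was at 162 ± 38.1 and 168 ± 4.07 CPM (log2 fold change -0.024, edgeR adjusted p 0.936).

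Among 12 other response genes, 11 were tested. Past the threshold, 4 fell and 1 rose, where 8.59% of all tested genes passed as lower and 6.26% as higher. By sign alone, 7 of the 11 had a log2 fold change below 0 and 4 above. Id4, of the same family as Id1, measured 50.1, 41.7 and 39.8 CPM across control replicates 1 to 3, against 16.7, 27.2 and 19.3 CPM in the dKO-labelled ones. It fell past the threshold (log2 fold change -1.13 with SE 0.21; edgeR, adjusted p 0.0103) and kept its call in 16 of 18 alternative fits, the exceptions being without dKO-labelled replicate 1 (-0.94) and with control replicate 3 alone (-0.97). Msx2, a homeobox gene that responds to BMPs and is also on the hair matrix list, fell (mean 7.96 ± 1.44 CPM in controls, 3.53 ± 0.353 CPM in dKO-labelled libraries, SD, n = 3 each; fitted log2 change -1.22; edgeR, adjusted p 0.0226). The cell cycle inhibitor genes Cdkn2b and Cdkn1a, responsive to TGF-β among other inputs, fell with log2 fold changes of -0.96 and -0.57 (edgeR adjusted p 0.0226 and 0.0343). Msx2 lost its call in 6, Cdkn2b in 7 and Cdkn1a in 9 of 18 alternative fits. Tgfbi, a matrix protein gene named here after its values were seen because it alone of the list rose past the threshold, had a log2 fold change of 0.90 (edgeR adjusted p 0.0430). It was at 119, 161 and 242 CPM in controls against 266, 354 and 404 CPM in the dKO-labelled libraries. Whether Tgfbi kept its call in the alternative fits was not examined.

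**Figure D2:**
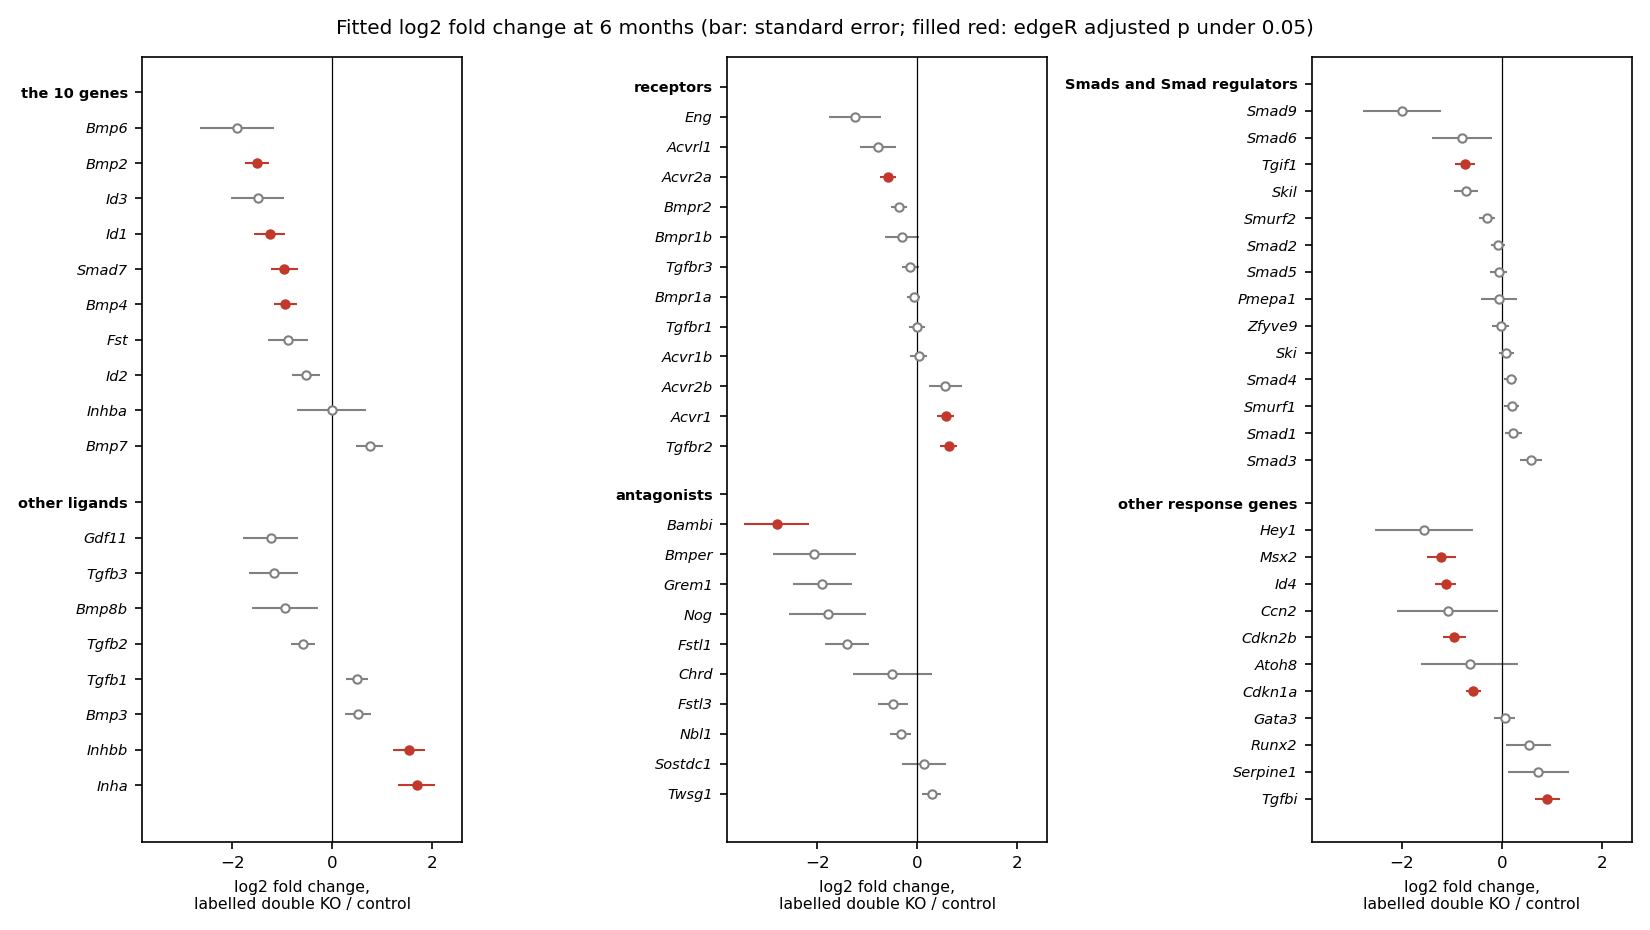
Fitted log2 fold change (horizontal axes, dKO-labelled libraries over controls at 6 months) with its standard error for the 10 genes and the 55 tested genes of the 5 other lists. Filled red points passed an edgeR adjusted p of 0.05: 4 of the 10 genes, all below 0, and 12 of the 55, with Inhbb and Inha the highest and Bambi the lowest.

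The dKO-labelled library of replicate 3 stood apart in these genes. It was the highest of its group in 9 of the 10, Bmp4 being the exception, whereas it was the highest of the 3 in 31.5% of all tested genes. Control replicate 2 was the highest control in 8 of the 10, against 32.2% of all tested genes. The summed level of 7 follicle stem cell markers was 161, 135 and 351 CPM in dKO-labelled replicates 1 to 3 and 261, 422 and 332 CPM in the controls. Within this list Sox9 was at 42.7, 30.7 and 119 CPM in the dKO-labelled libraries, against 77.5, 162 and 124 CPM in the controls, and Lgr5 at 0.941, 1.02 and 4.001 against 18.1, 39.4 and 19.1 CPM. All 7 markers had a log2 fold change below 0 and 2 of them, Lgr5 and Fgf18, named after their values were seen, passed the threshold as lower (-3.63 and -2.31, edgeR adjusted p 0.00785 and 0.00589). Over all tested genes 8.59% passed as lower. The same library was thus the highest of its group in most of the BMP and activin genes and in follicle stem cell markers, and the part of follicle content in the differences between the groups was not tested.

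**Figure D3:**
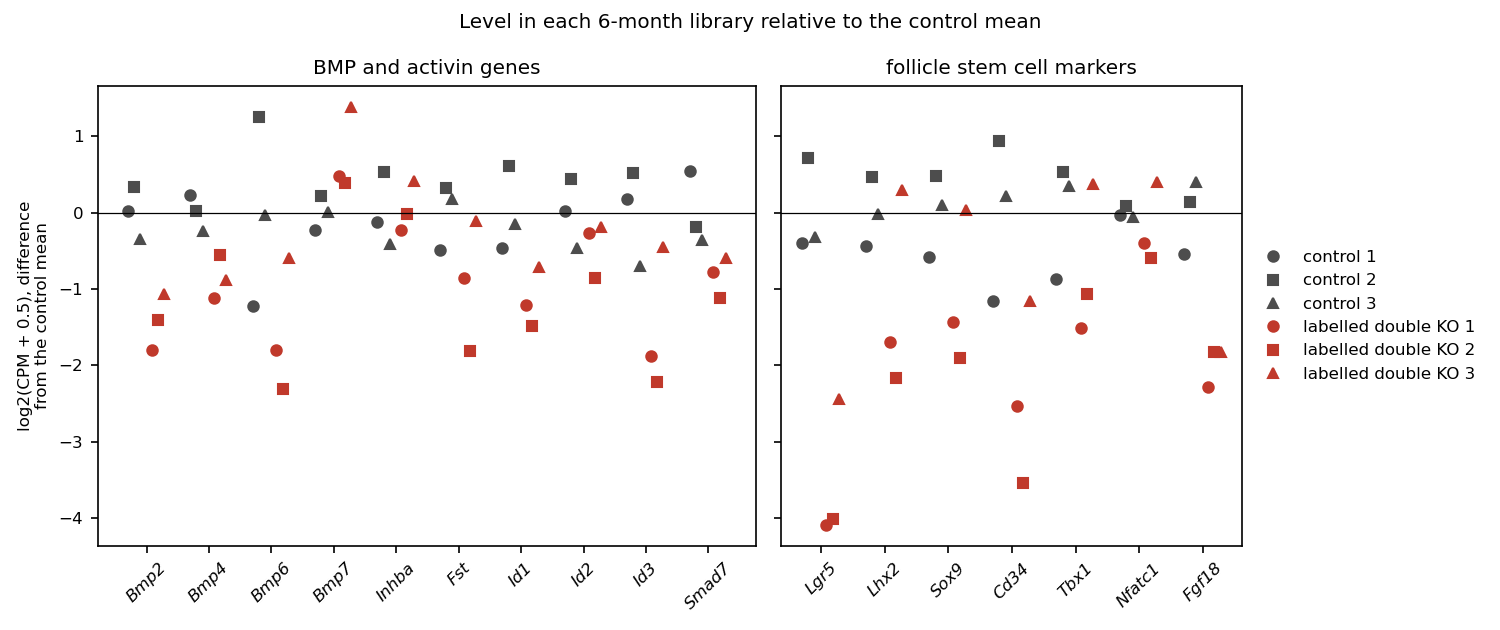
Level of the 10 genes (left) and of 7 follicle stem cell markers (right) in each library at 6 months, as log2(CPM + 0.5) minus its mean over the 3 controls (grey controls, red dKO-labelled libraries, the marker shape giving the replicate). Replicate 3 of the dKO-labelled libraries (red triangles) lies above replicates 1 and 2 for 9 of the 10 genes, and it lies within or above the control range for Lhx2, Sox9, Tbx1 and Nfatc1.

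**Figure D4:**
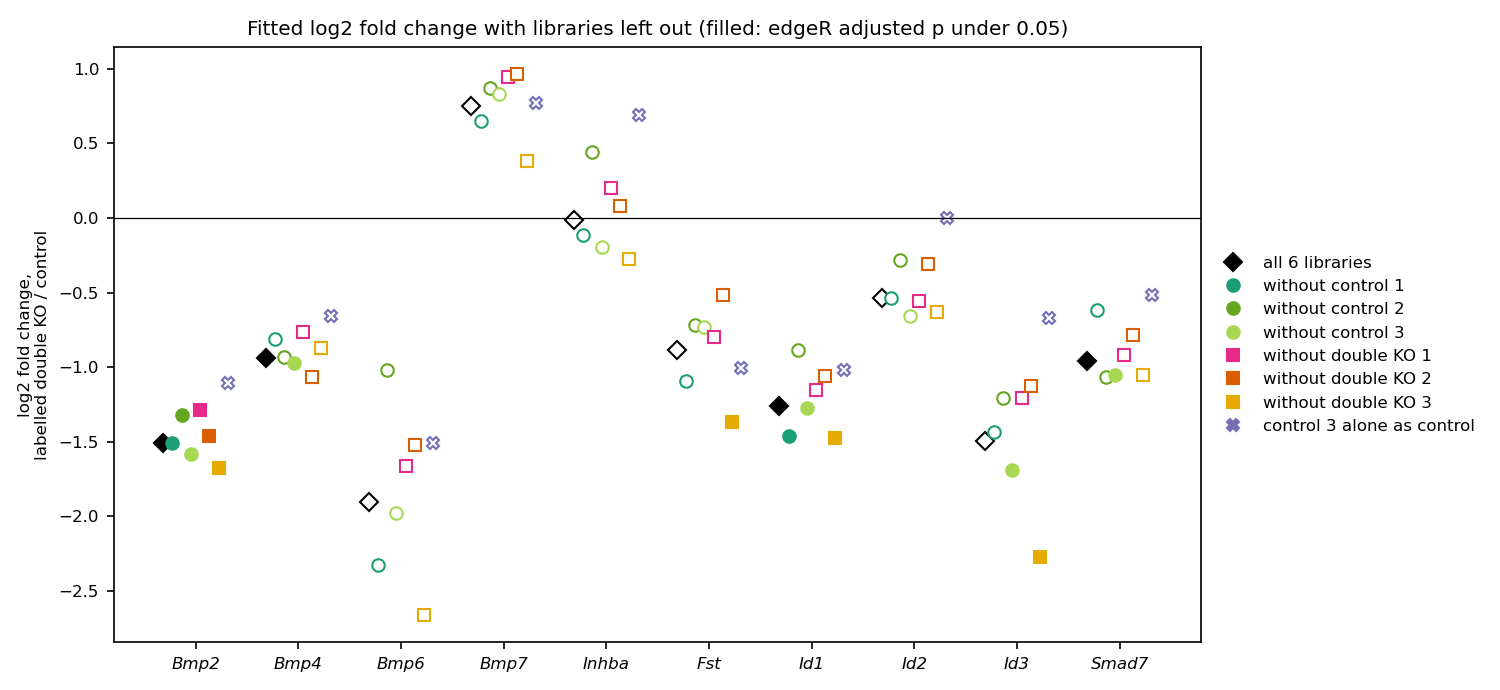
Fitted log2 fold change of the 10 genes (vertical axis) with all 6 libraries, with each library left out in turn and with control replicate 3 as the only control; filled points passed an edgeR adjusted p of 0.05. Bmp2 is filled in all but the last of these fits, and the sign of Inhba changes with the library left out.

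Markers of other cells also differed between the groups, where 14.9% of all tested genes passed the threshold, 6.26% as higher and 8.59% as lower. The dermal fibroblast genes Col1a1, Col1a2 and Col3a1 fell and Postn rose in the dKO-labelled libraries (Col1a2 and Col3a1 are named after their values were seen). Col1a1 was at 22.7, 64.9 and 26.9 CPM in controls against 4.27, 10.2 and 10.9 CPM, and 6 of 7 genes of that list had a log2 fold change below 0. Postn, the most abundant of the list at 6 months, was at 60.8, 121 and 208 CPM in controls against 437, 376 and 864 CPM (log2 fold change 2.04, edgeR adjusted p 0.0460). With Postn included, the summed level of the 7 genes was higher in the dKO-labelled libraries, at 114, 277 and 264 CPM in controls against 449, 399 and 887 CPM. The summed level of 6 dermal papilla markers, cells known to make BMP ligands and antagonists, came to 11.1, 16.3 and 6.97 CPM for the controls but 1.67, 4.70 and 2.93 CPM for the dKO-labelled libraries, and its 3 tested genes had log2 fold changes of -2.15 to -1.43. None of the 3 passed in edgeR's test or with limma-voom. All 3 had an unadjusted edgeR p under 0.05, as did 5690 of the 17755 genes tested. With DESeq2, which called 21.6% of all tested genes, 2 of the 3 passed. The read density over receptor genes would account for 54.1% and 62.9% of the Hhip counts of control replicates 1 and 2, and for 104% and 124% of those of Ndp, both named after their values were seen. Of these 6 markers, 3, 1 and 1 were at 0 in dKO-labelled replicates 1, 2 and 3, and 2 were at 0 in control replicate 3. The basal keratinocyte list had 5 of 6 genes past the threshold as higher, and its sum was 6950 to 9303 CPM in the controls against 14135 to 17349 CPM. Its other gene, Krt15, named after its values were seen, went the other way without overlap. Krt15 was at 728, 1164 and 1187 CPM in controls against 234, 673 and 330 CPM (log2 fold change -1.39, edgeR adjusted p 0.0513). With limma-voom and with DESeq2 all 6 genes of the list passed. Of 5 suprabasal keratinocyte markers 1 passed, Krt1, as higher (log2 fold change 1.05, edgeR adjusted p 0.00810), named after its values were seen. Krt10, of the same list, was at 0.037 (edgeR adjusted p 0.904), and 3 of the 5 were below 0. Of 5 granular keratinocyte markers 1 passed, Flg2, as lower (-1.47, edgeR adjusted p 0.00982), and 3 of the 5 were above 0. Of the skeletal muscle list both tested genes, Ttn and Acta1, fell (log2 fold changes -2.11 and -1.98, edgeR adjusted p 0.00502 and 0.0445). The sum of the muscle list was 66.4, 80.5 and 32.4 CPM in controls against 12.4, 16.6 and 12.2 CPM. Receptor-gene density would account for 27.3% and 43.8% of the Ttn counts of control replicates 1 and 2. Sebaceous markers summed to 1122 to 1272 CPM in controls against 541 to 607 CPM, with Scd1 past the threshold as lower (-2.09, edgeR adjusted p 0.000132). Hair matrix and shaft markers summed to 31.5, 30.0 and 32.1 CPM against 15.8, 17.4 and 18.1 CPM, with all 5 tested genes below 0 and 1, Msx2, past the threshold. T cell markers ranged from 58.0 to 125 CPM in sum over the controls and from 32.2 to 104 CPM over the others, and Langerhans and myeloid markers from 241 to 348 and from 242 to 348 CPM. The part of these cells in the BMP and activin differences was not tested.

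At 3 weeks the 2 libraries labelled Tfap2b knockout had no control of that age with counts, so age and genotype cannot be told apart and their values are given without a comparison. Replicates 1 and 2 held 26.7 and 37.0 CPM of Bmp2, 25.6 and 25.4 of Bmp4, 8.87 and 0.400 of Bmp6, 30.8 and 28.6 of Bmp7, and 0.231 and 0.160 of Inhba. Fst was at 9.10 and 16.7 CPM, Id1 at 28.4 and 17.3, Id2 at 24.1 and 26.5, Id3 at 13.9 and 7.35 and Smad7 at 27.5 and 28.9 CPM. The libraries were close in Bmp4, Bmp7, Id2 and Smad7 and far apart in Bmp6. They differed in other cells too: replicate 1 held 1806 CPM of adipocyte, 375 CPM of endothelial and 2718 CPM of dermal fibroblast markers in sum, and replicate 2 held 0.160, 0.320 and 87.5 CPM.

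Over the 8 libraries, the protein-coding genes whose log2(CPM + 1), centred on its mean, was nearest to that of Id1 were Ptpru, Azin2 and Tiam2, with root mean square differences of 0.215, 0.246 and 0.269 among 10352 genes with a mean of at least 5 CPM, against a spread of 0.625 in Id1 itself. At 6 months Azin2 and Tiam2 passed the threshold as lower (log2 fold changes -1.72 and -1.30, edgeR adjusted p 0.0106 and 0.0430), and Ptpru did not (-0.94, edgeR adjusted p 0.142). Nearest to Inhba, whose spread was 0.333, were Srp9, Rcn2 and Rps24 (0.132, 0.137 and 0.137), with log2 fold changes of 0.039, -0.21 and -0.076. Inhba itself was at 0.160 to 1.33 CPM on 2 to 21 counts, below the 5 CPM asked of the compared genes. At that level the added 1 and counting noise weigh heavily, so its likeness to these genes says little. The points share library depth and group.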

How the data were processed

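Total RNA of mouse epidermis was depleted of ribosomal RNA and sequenced, per the labels' protocols. The authors deposited raw read counts per gene, 1 file per sample; the submitters' processing notes name Trimmomatic 0.36, STAR 2.5.2b, featureCounts, Subread 1.5.2 and the builds GRCh38 and GRCm38, and strand and multimapping settings were not given in the sources used here. Identifiers were named from GENCODE M21, where 49056 of 49315 (99.475%) were found; gene positions are on GRCm38. Of 21 files, 13 hold 0 for every gene and were left out.

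The 3 controls and 3 dKO-labelled libraries at 6 months were fitted with edgeR 4.0.16 (R 4.3.3; filterByExpr, TMM factors, quasi-likelihood test, Benjamini-Hochberg adjustment over 17755 genes, threshold 0.05). CPM are counts per 1000000 of the library total. Totals limit precision, so counts are given for low genes. Named genes are the 10, Tfap2a, Tfap2b, up to 4 genes per pathway list (those past the threshold with the smallest p, filled up with the highest mean CPM where fewer than 2 passed), up to 2 per cell type list, and the 3 genes most like Id1 and Inhba. The genes and lists were chosen with earlier results of these data known. Alternatives included limma-voom (limma 3.58.1) and DESeq2 1.42.0, other scalings and filters, a replicate block, background subtraction and leaving out each library; control replicate 3 as the only control was added after seeing the data. The fitting was tested on simulated data.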

Additional observations from a re-analysis of the deposited data

How the results depend on the processing

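Of the 10 genes, Bmp2 kept its call in 17 of 18 alternatives, Id1 in 13, Bmp4 in 11 and Smad7 in 9, and their log2 fold changes stayed below 0 in all. Without a filter on low counts 4809 genes (11.3% of those tested) passed, and 8 of the 10, Bmp6, Bmp7, Fst and Id3 being added. DESeq2 called 3835 genes (21.6%) and 7 of the 10, with Bmp6, Bmp7 and Id3, and limma-voom 2142 (12.1%) and 3 of the 10, without Smad7. One fit over all libraries called 1548 genes (7.17%). With control replicate 3 as the only control, assumed to vary like the other group, edgeR called 437 genes (2.32%) and 0 of the 10 (2 of the 10 at an unadjusted p under 0.05). Leaving out 1 library gave 668 to 7544 genes (3.15% to 35.9%) and 1 to 5 of the 10. Same-numbered libraries did not deviate together (correlations of 0.028, -0.16 and -0.057 for numbers 1 to 3, against -0.11 to 0.17 for other pairs). With 3 libraries per group these values cannot exclude a pairing. With the number as a replicate block 1729 genes (9.74%) passed, and 1 of the 10, Bmp2. Except where stated, the cause was not tested.

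The log2 fold change of Inhba, on 7 to 21 counts, turned above 0 with total counts (0.041), no filter (0.097), the replicate block (0.023), all libraries (0.024), limma-voom (0.13), background subtracted (0.38) or control replicate 3 alone (0.69), and over the libraries left out it ran from -0.27 to 0.44, with 0.44 without control replicate 2 and 0.20 and 0.081 without dKO-labelled replicates 1 and 2. That of Zfyve9, near 0, turned with total counts (0.043), no filter (0.095), the replicate block (0.0032), all libraries (0.025), limma-voom (0.0048) or control replicate 3 alone (0.15), and over the libraries left out it ran from -0.14 to 0.19 (control replicates 2 and 1 removed), with the values without dKO-labelled replicates 1, 2 and 3 above 0 too (0.011, 0.026 and 0.022). That of Twsg1 was -0.037 with control replicate 3 alone. Inhba lacks a value with at least 10 counts required in every library.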
